A study of Mus musculus with 20 samples.

Results

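The comparison described here sets mouse embryonic fibroblasts without ADAR2 against mouse embryonic fibroblasts without STAT2, both untreated. These are cultured connective tissue cells taken from embryos. Per the labels, the genotypes are ADAR2_NULL and STAT2_NULL, and each was sampled as 2 libraries, which makes 4 of the 20 libraries of the series. Levels in interferon-treated libraries of the same lines (2 each), and in untreated libraries labelled ADAR1_NULL, P150_KO and ADAR1_WT (2 each), are given beside them as description. All 20 libraries, including interferon-treated ADAR1_NULL, P150_KO and ADAR1_WT (2 each), also entered the fit. They share its estimate of spread, so the calls depend on them too. The labels call all of them embryonic fibroblasts and give no strain, clone or age. Each genotype is 1 line, so its effect cannot be told apart from other differences between the lines. RNA editing was read by amplifying 557 loci from cDNA and counting edited and unedited reads at known sites, with positions on the mouse build mm9. Sites were taken where all 4 libraries had at least 50 reads, which left 8218 of the 48425 sites listed. Of these, 558 sites in 177 genes or intergenic loci had a mean editing level of at least 1% over the 4 libraries and were tested.

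Adenosine deaminases acting on RNA convert adenosine to inosine in base-paired RNA, and inosine is read as guanosine by ribosomes and in sequenced cDNA. ADAR1 has a constitutive nuclear form, p110, and an interferon-inducible form, p150, and is known for editing inverted repeats in introns and 3′ untranslated regions (UTRs). ADAR2, the product of Adarb1, is known for recoding chosen codons, such as those of neuronal glutamate receptors. STAT2 belongs to the transcription factor complex that carries the type I interferon signal, and its loss leaves the genes of both enzymes in place. The STAT2-null line therefore serves here as a line that carries both ADAR1 and ADAR2. The assay gives no expression, so the loss of ADAR2 or STAT2 and the fibroblast label were not checked against transcript levels.

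The 4 libraries held 4978546 to 5317026 reads summed over sites, and 8591 to 8799 sites with at least 50 reads. Median depth at the tested sites was 407 and 384 reads in the ADAR2-null libraries and 372 and 375 reads in the STAT2-null libraries. The ADAR2-null libraries differed from each other by a median of 1.14 percentage points per site, and the STAT2-null libraries by 1.40. The labels do not say whether the 2 libraries of a line are separate cultures, and p-values reflect the spread between libraries only, possibly a technical one. At the named sites, a level came from 66 to 9076 reads. The 95% Wilson interval of a level had a median half-width of 1.22 percentage points and reached 9.24 at the Rpa1 site; it covers counting error only, since amplicon reads are not independent molecules.

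Editing was lower in the ADAR2-null libraries over the tested sites as a whole. The mean level was 2.96% and 2.33% in the ADAR2-null libraries and 5.42% and 5.78% in the STAT2-null libraries. The lines did not overlap, and their means were 2.64 ± 0.447% and 5.60 ± 0.254% (SD, n = 2 each). The difference was −2.95 percentage points (SE 0.364). An exact two-sided permutation test over the 6 splits gave p = 0.333, the smallest value that 2 libraries against 2 can reach. The site mean was lower in ADAR2-null at 419 of the 558 sites. Over all 8218 covered sites, with no minimum level, the difference was −0.193 points. No edited read was seen in the ADAR2-null line at 2484 of those sites and in the STAT2-null line at 2735.

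Per site, the quasi-likelihood test of edgeR called 18 sites lower in ADAR2-null, 3.23% of those tested, and 0 higher (0.0%). A call means a p under 0.05 after Benjamini-Hochberg adjustment over all sites tested. The 18 sites lie in 11 loci, with 13 in 3′ UTRs, 3 in a noncoding RNA, 1 in a coding exon and 1 between genes. At an unadjusted p under 0.05 there were 123 sites (22.0%), of which 112 were lower and 11 higher. Both ADAR2-null libraries lay below both STAT2-null libraries at 265 sites (47.5%) and above them at 33 (5.91%). No edited read was seen in ADAR2-null at 29 of the 265 and in STAT2-null at 11 of the 33. Such sites passed the 1% minimum through the other line alone. The filter thus fixed their direction, and the shares without overlap include them here and below. The 265 sites spread over 105 loci with a median difference of −3.63 points, and 43 of them, in 29 loci, were more than 10 points lower. The 33 sites above had a median difference of 2.15 points, and 0 of them differed by more than 10.

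**Figure D1:**
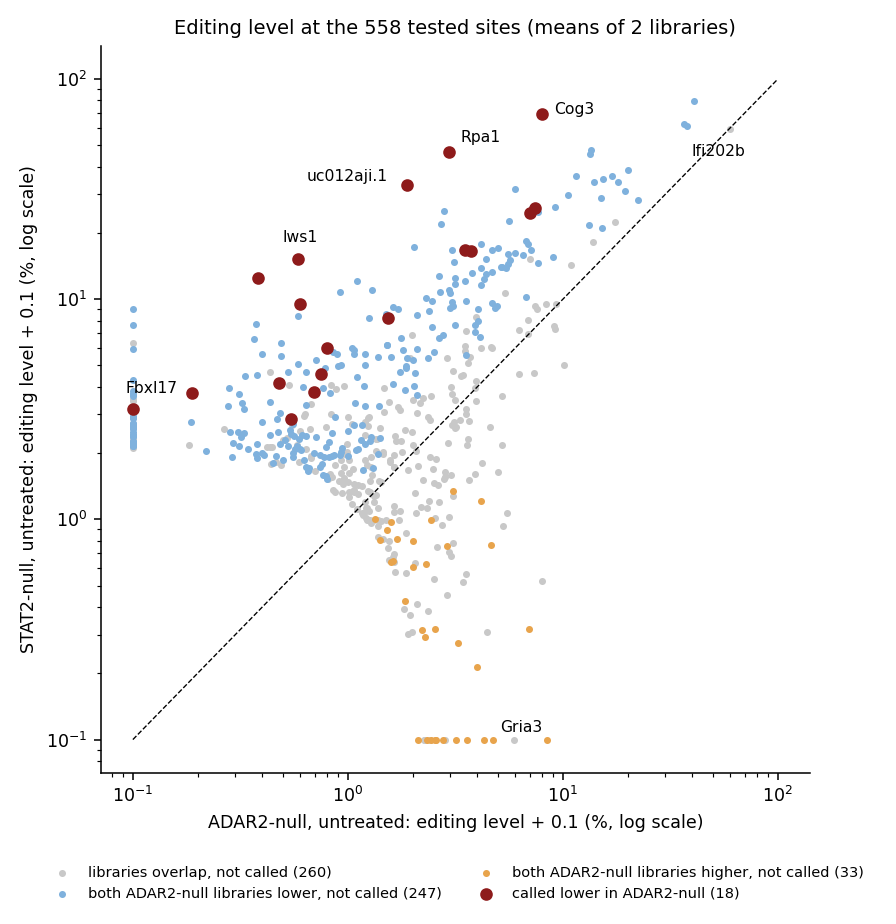
Mean editing level (%, plus 0.1, log axes) in ADAR2-null cells (horizontal) and STAT2-null cells (vertical) at the 558 tested sites, each point a site and the dashed line equal levels. The 18 called sites all lie on the STAT2-null side of the line, and Ifi202b lies on it near 60%; the empty lower left corner is the 1% minimum mean level.

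The share of sites where both ADAR2-null libraries were below both STAT2-null libraries was larger at higher levels. It was 35.8% of 307 sites with a mean level of 1 to 2%, 47.1% of 140 sites at 2 to 5% and 73.0% of 63 sites at 5 to 10%. It reached 86.7% of 30 sites at 10 to 20% and 94.4% of 18 sites above that. The median difference at the 18 most edited sites was −19.9 points, against −1.57 points over all sites tested. In ADAR2-null cells 21 sites exceeded 10% and 1 exceeded 50%, against 77 and 5 in STAT2-null cells.

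The greatest difference was at the coding site of Cog3, a subunit of a complex that tethers vesicles at the Golgi. The site is at position 76119526 of chromosome 14, on the minus strand, and turns an isoleucine codon into a valine codon. It was edited at 7.73% and 8.13% in the ADAR2-null libraries (54 of 699 and 50 of 615 reads) and at 72.7% and 66.1% in the STAT2-null libraries (413 of 568 and 404 of 611 reads). The 2 lines were far from overlapping. The difference was −61.5 points (SE 3.30, adjusted p = 0.00165). The neighbouring base, position 76119527, is a synonymous site with 0.428% and 1.46% in ADAR2-null and 7.38% and 4.42% in STAT2-null, and was not called (adjusted p = 0.127). A lysine to arginine site at position 76119510 had low levels in both lines, with 1.29% and 1.14% in ADAR2-null and 1.58% and 1.64% in STAT2-null.

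A noncoding RNA, uc012aji.1 on chromosome 17, held the site with the lowest adjusted p. At position 6122636 on the plus strand, editing was 2.67% and 0.911% in ADAR2-null (114 of 4269 and 31 of 3402 reads), against 31.3% and 34.7% in STAT2-null (1216 of 3887 and 1245 of 3591 reads). The lines stood far apart, with an adjusted p of 0.000202. Position 6122631 in the same RNA had 7.43% and 7.28% in ADAR2-null and 25.2% and 26.4% in STAT2-null. The third called site, position 6122653, had 0.773% and 0.528% in ADAR2-null and 4.12% and 4.88% in STAT2-null. Editing was thus lower by a factor of 18.4 at position 6122636, and the lines were separate at all 3 sites.

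The called 3′ UTR sites lay in 8 genes. Rpa1 encodes the large subunit of replication protein A, which binds single-stranded DNA. At position 75114079 of chromosome 11 (minus strand) it was edited at 1.69% and 4% in ADAR2-null (2 of 118 and 4 of 100 reads) and at 39.5% and 53.7% in STAT2-null (58 of 147 and 58 of 108 reads). The difference of −43.7 points (SE 7.22, adjusted p = 0.0174) was the greatest outside coding sequence. Mad2l1 encodes a protein of the spindle assembly checkpoint. Its site with the greatest called difference, position 66490264 of chromosome 6 (plus strand), had 7.81% and 6.07% in ADAR2-null and 24.8% and 24.4% in STAT2-null, from at least 8132 reads per library (adjusted p = 0.0424). Iws1 encodes a factor of transcription elongation. Position 32262154 of chromosome 18 (plus strand) in its 3′ UTR had 0.534% and 0.434% in ADAR2-null against 15.3% and 14.8% in STAT2-null (adjusted p = 0.0308). The 2 libraries of each line were close together at Mad2l1 and Iws1 and wider apart at Rpa1, where depth was lowest.

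Smaller called differences were seen in Als2cl, Gnl3l, Klhl24, Slc35e2 and Fbxl17. In Als2cl, position 110802807 of chromosome 9 (plus strand) had 0.725% and 0.274% in ADAR2-null and 11.3% and 7.55% in STAT2-null (adjusted p = 0.0477). Gnl3l encodes a nucleolar GTP-binding protein. Position 147420066 of chromosome X (minus strand) had 2.61% and 0.261% in ADAR2-null and 6.86% and 9.39% in STAT2-null (adjusted p = 0.0477). Klhl24 is a Kelch-like adaptor of a ubiquitin ligase; position 20123821 of chromosome 16 (plus strand) had 0.346% and 0.408% in ADAR2-null and 4.65% and 3.44% in STAT2-null (adjusted p = 0.0487). Slc35e2 belongs to a family of solute carriers. Position 154996025 of chromosome 4 (plus strand) had 0% and 0.175% in ADAR2-null, 2 edited reads in all, and 3.44% and 3.83% in STAT2-null (adjusted p = 0.0391). Fbxl17 encodes an F-box protein of another ubiquitin ligase. Position 63403538 of chromosome 17 (minus strand) had 0 edited of 1074 reads in ADAR2-null, which allows up to 0.279%, and 2.84% and 3.30% in STAT2-null (adjusted p = 0.0308). That makes the STAT2-null level at least 10.99-fold higher, with the floor taken as 3 edited reads over both ADAR2-null libraries. No library of the 2 lines overlapped at any of these 5 sites.

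The called intergenic site, position 64391618 of chromosome 13, differed from the others in where it was edited. It had 0.354% and 0.210% in ADAR2-null (9 of 2545 and 5 of 2385 reads) and 14.5% and 10.3% in STAT2-null (304 of 2101 and 261 of 2526 reads), with an adjusted p of 0.00193. Its mean was 0.223% in untreated ADAR1-null cells, 0.123% in p150-knockout cells and 0.213% in ADAR1_WT cells. With interferon it was 0.0898% in ADAR2-null and 14.8% in STAT2-null cells. A level above 1% was thus seen in the STAT2-null line alone among the groups just named, and at this site ADAR2-null cells were at the level of ADAR1_WT cells. The files hold no DNA reads, so an edited base and a genomic difference of the line cannot be told apart here.

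**Figure D2:**
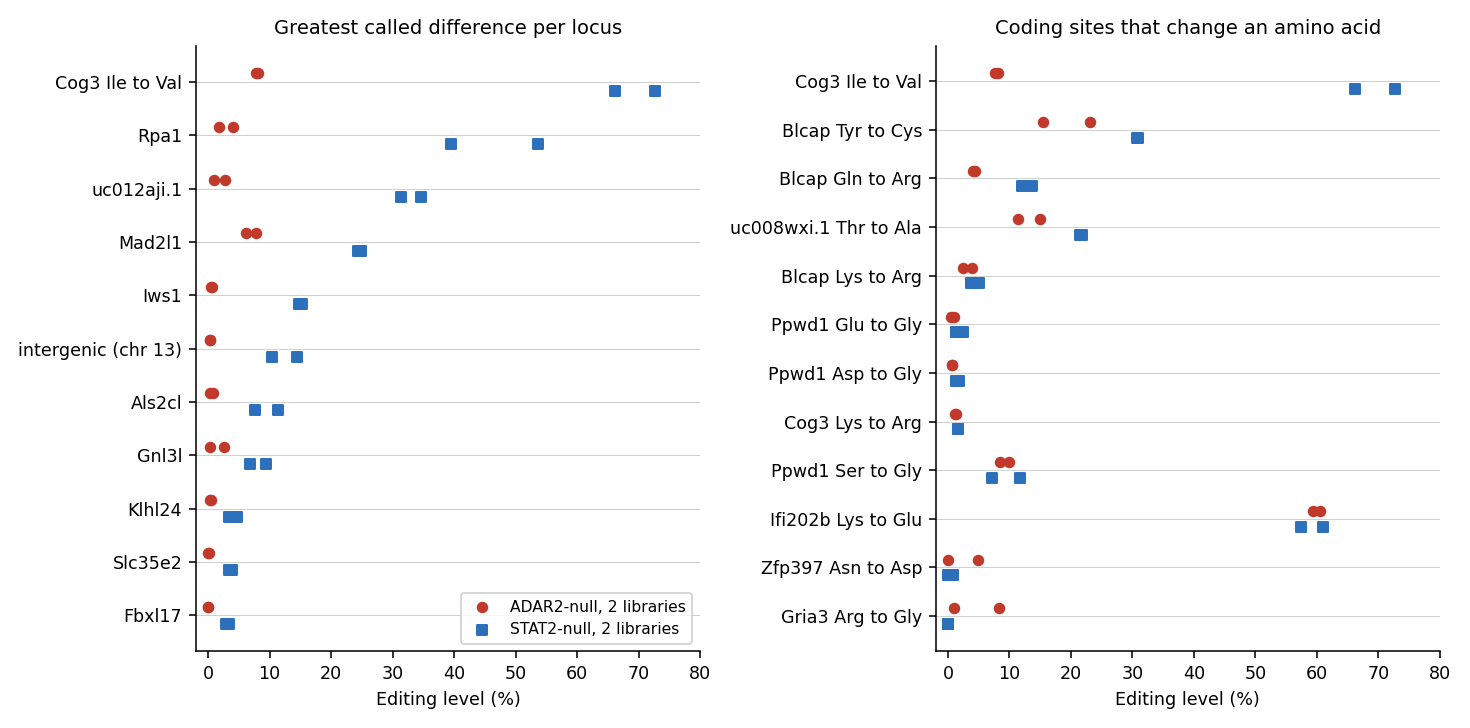
Editing level (%) in each ADAR2-null library (circles) and STAT2-null library (squares), for the called site with the greatest difference in each of the 11 loci (left) and for 12 of the 13 tested coding sites that change an amino acid (right). The lines are separate at all 11 sites on the left; on the right Cog3 stands apart, Ifi202b lies near 60% in both lines and Gria3 is the coding site with both ADAR2-null libraries above.

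Only Cog3 position 76119526, uc012aji.1 position 6122636 and the intergenic site stayed called when any 1 of the 4 libraries was left out. The number of sites called was 11 without the first ADAR2-null library, 3 without the second, 3 without the first STAT2-null library and 3 without the second. Of the other 15 calls, 13 were lost whichever library was left out. All 18 kept their direction in each setting in which they were tested. When the 2 libraries of other groups with the fewest covered sites were left out of the shared fit, an alternative chosen after seeing the data, 56 sites were called, 55 of them lower. The 18 calls were all among them.

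The sites of Mad2l1, Rpa1, uc012aji.1 and Gnl3l are described next, with other transcripts after them. Mad2l1 had 27 tested sites within 765 bases of its 3′ UTR. At 26 of them (96.3%, against 47.5% of all tested sites) both ADAR2-null libraries were below both STAT2-null libraries. Called were 4 of the 27 (14.8%, against 3.23% of all tested sites). Its site means ran from 0.442% to 13.2% in ADAR2-null and from 1.57% to 45.5% in STAT2-null. The ratio of STAT2-null to ADAR2-null means ran from 1.34 to 6.22 with a median of 3.19. Its most edited site, position 66490075, had 16.4% and 10.03% in ADAR2-null and 45.5% and 45.5% in STAT2-null and was not called (adjusted p = 0.0838). Sites of a transcript share reads and are not independent of each other.

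Rpa1 had 24 tested sites within 472 bases. Lower without overlap were 18 (75.0%, against 47.5% of all tested sites), and 1 was called (4.17%, against 3.23%). No edited read was seen in ADAR2-null at 8 of the 24 sites, which passed the 1% minimum through STAT2-null alone. Over all 24 sites and the 4 libraries, depth ran from 50 to 335 reads. Directly beside its called site, position 75114080 had 16.9% and 10% in ADAR2-null and 49.0% and 46.3% in STAT2-null. At position 75114517 the levels were 36.4% and 44.6% in ADAR2-null and 77.4% and 81.5% in STAT2-null. Adjacent adenosines thus had ratios of 16.4 at the called site and 3.54 beside it; the difference between these ratios was not tested.

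Over all tested sites, 47.5% were lower without overlap and 3.23% were called. In uc012aji.1, 12 of 13 sites (92.3%) were lower without overlap and 3 (23.1%) were called, with ratios from 0.923 to 18.4. Gnl3l had 6 tested sites within 75 bases, all 6 lower without overlap and 3 called. Its ratios ran from 3.13 to 8.45. Ankrd28, an ankyrin repeat protein of a phosphatase complex, had 8 of 8 sites lower without overlap and 0 called. Shares below the 47.5% of all tested sites were also seen, with Fbxl17, at 40.0%, near it. Dnajc1 had 4 of 15 sites lower without overlap and Gla, which encodes a lysosomal galactosidase, 0 of 9. Of the genes with a called site, Iws1 had 2 of 9 and Fbxl17 had 6 of 15 lower without overlap, with 1 Fbxl17 site higher. In Taz the site mean was lower in ADAR2-null at 3 of 7 sites.

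**Figure D3:**
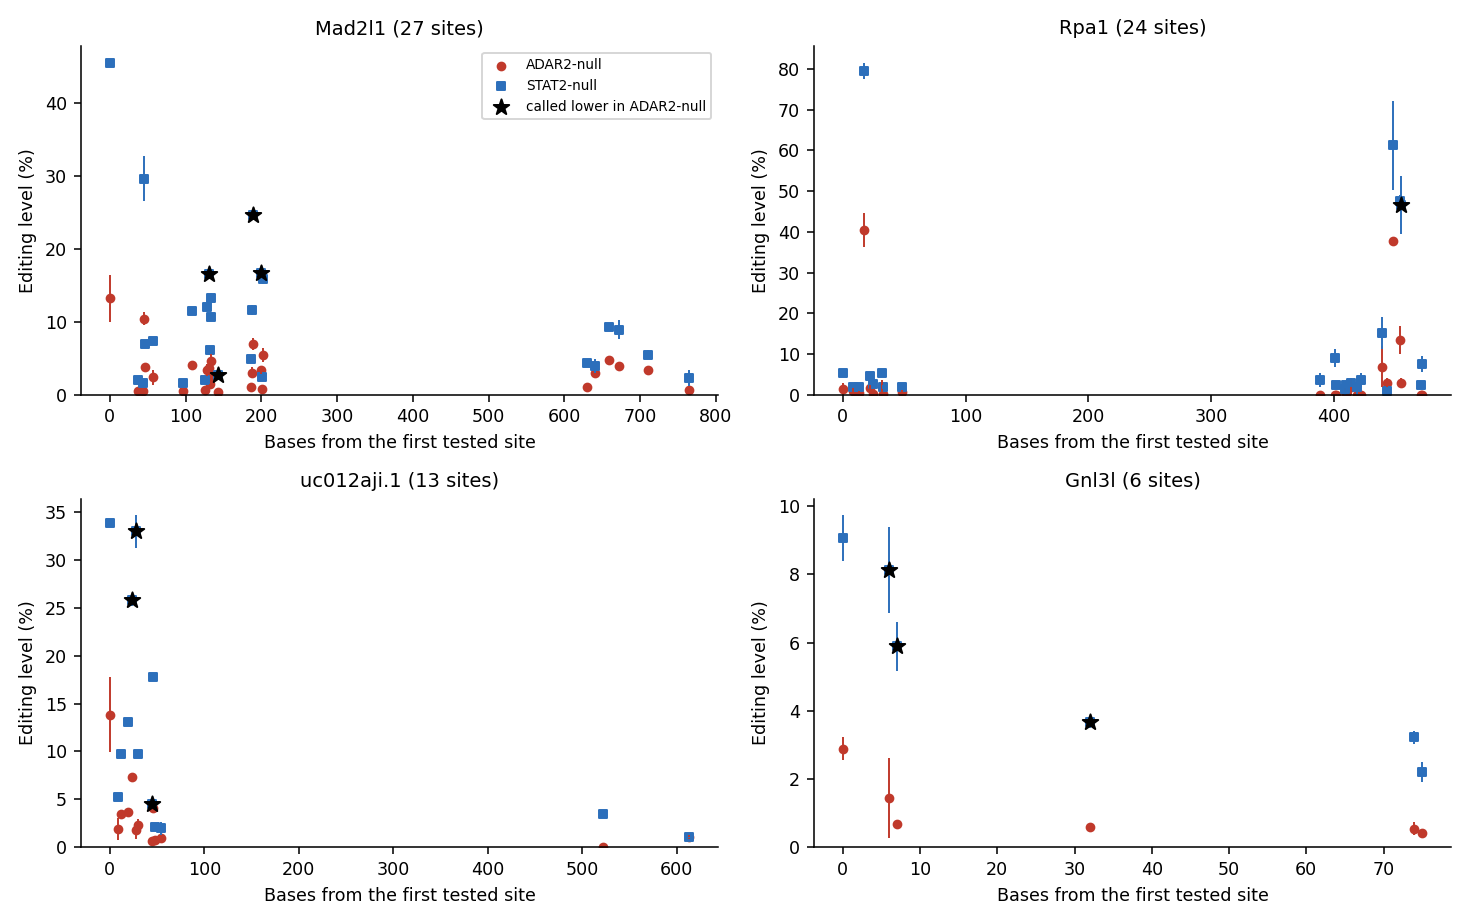
Editing level (%) at each tested site of Mad2l1, Rpa1, uc012aji.1 and Gnl3l against distance in bases from the first tested site; circles are ADAR2-null means, squares STAT2-null means, vertical lines join the 2 libraries and stars mark called sites. The STAT2-null mean lies above the ADAR2-null mean at all 27 sites in Mad2l1 and all 6 in Gnl3l, with the gap differing from site to site.

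The 13 tested amino acid sites lie in 8 genes, and 1 of them, in Cog3, was called (7.69%, against 3.23% of all tested sites). Both ADAR2-null libraries were lower at 8 of the 13, which is 61.5%, against 47.5% of all tested sites. Blcap encodes a small protein linked to apoptosis and is counted here among ADAR1-type targets. Its tyrosine to cysteine site, position 157383885 of chromosome 2, had 23.2% and 15.5% in ADAR2-null and 30.9% and 30.8% in STAT2-null. The difference of −11.5 points (SE 3.82) was not called (adjusted p = 0.35). Its glutamine to arginine site, position 157383876, had 4.47% and 4.13% in ADAR2-null against 13.7% and 12.1% in STAT2-null (adjusted p = 0.202). Its lysine to arginine site, position 157383846, overlapped between the lines, with 3.96% and 2.52% in ADAR2-null and 4.98% and 3.77% in STAT2-null.

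A threonine to alanine site in uc008wxi.1, position 31475853 of chromosome 5, had 15.0% and 11.4% in ADAR2-null and 21.4% and 21.8% in STAT2-null (adjusted p = 0.544). The 3 sites of Ppwd1, a nuclear peptidyl-prolyl isomerase, were not called. Its serine to glycine site had 8.53% and 9.89% in ADAR2-null, within the 11.7% and 7.13% of the STAT2-null libraries. A site in the zinc finger gene Zfp397 had 0% and 4.85% in ADAR2-null, which enclose the 0% and 0.870% of STAT2-null.

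Ifi202b, an interferon-inducible DNA-binding protein, had the highest coding level in ADAR2-null. Its lysine to glutamate site, position 175901522 of chromosome 1, had 59.4% and 60.5% in ADAR2-null and 61.0% and 57.4% in STAT2-null. The libraries overlapped and differed by 0.697 points (SE 1.88). The same site had a mean of 0.242% in ADAR1-null cells and 0.379% in ADAR1_WT cells. With interferon it was 56.6% in ADAR2-null and 56.8% in STAT2-null cells. As at the intergenic site, editing and a genomic difference between lines cannot be told apart from these files.

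Among known ADAR2 targets that were tested, Cog3 was called and the rest were not. The list held 20 genes chosen as ADAR2-type targets, 7 of which had a tested site, 14 sites in all. Of these 14, 1 was called lower, which is 7.14%, against 3.23% of all tested sites. Lower without overlap were 7, or 50% against 47.5% of all sites, and higher without overlap 3, or 21.4% against 5.91%. The 3 higher sites are positions 39007429 and 39007465, both in Gria3 and so not independent, and the Unc80 site. At Unc80 the closest libraries had 0.330% in ADAR2-null and 0.308% in STAT2-null. The median difference was −1.26 points in the list and −1.57 over all tested sites. Flna encodes filamin A. Its intronic site at position 71471989 of chromosome X had 0% and 0.971% in ADAR2-null and 7.89% and 8.77% in STAT2-null, from 206 to 308 reads. It was not called (adjusted p = 0.148), and with interferon it was called lower (adjusted p = 0.0318). Untreated ADAR1_WT cells had 44.2% and 42.2% at this site, well above the STAT2-null line. Adarb1 itself carries intronic sites, which ADAR2 is known to edit in its own precursor RNA in rat. Its site with the greatest difference, position 76786805 of chromosome 10, had 3.26% and 1.32% in ADAR2-null and 6.78% and 10.6% in STAT2-null (adjusted p = 0.187). Editing at Adarb1 was thus measured above 1% in the line labelled as lacking its product.

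At Gria3 the ADAR2-null libraries were the higher ones. It encodes an AMPA-type glutamate receptor subunit, and its arginine to glycine site at position 39007429 of chromosome X had 8.32% and 0.919% in ADAR2-null (82 of 986 and 9 of 979 reads), against 0 edited of 844 reads in STAT2-null, which allows up to 0.355%. Both ADAR2-null libraries were above both STAT2-null libraries, but they lay far apart from each other and the site was not called (adjusted p = 0.0930). With interferon it was called higher in ADAR2-null, at 5.74% and 8.72% against 0.690% and 0% in STAT2-null (adjusted p = 0.0282). An intronic site at position 39007465 had 5.01% and 2.76% in ADAR2-null and a mean of 0.113% in STAT2-null (adjusted p = 0.0839). The coding site was edited at 32.4% and 34.2% in ADAR1_WT cells. Unc80, a subunit of a sodium leak channel, had 4.04% and 0.330% in ADAR2-null and 0.0756% and 0.308% in STAT2-null at an intronic site (adjusted p = 0.236). Son, a splicing cofactor, overlapped between the lines.

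The list of ADAR1-type targets was represented by Blcap alone, with 3 sites, 0 called by edgeR, 1 at an unadjusted p under 0.05 and a median difference of −8.60 points, against −1.57 over all sites. The list of 3′ UTR duplexes, Mad2l1 and Rpa1, held 51 sites, of which 5 were called lower (9.80%, against 3.23% of all tested sites) and 44 lay lower without overlap (86.3%, against 47.5%). Its median was −3.63 points, against −1.57 over all sites. Genes of DNA repair and genome maintenance, 4 genes with 63 sites that include those 2, had 5 called lower (7.94%, against 3.23% of all tested sites) and a median of −3.18 points, against −1.57. Their other members were the checkpoint mediator Mdc1 and the mismatch repair gene Mlh3. The Mdc1 site with the greatest difference had 1.80% and 1.01% in ADAR2-null and 4.55% and 12.4% in STAT2-null (adjusted p = 0.118). The Mlh3 site had 0.194% and 0.223% in ADAR2-null and 3.05% and 1.75% in STAT2-null (adjusted p = 0.108). These lists were assembled with earlier results of the same libraries known.

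RNA-binding and nuclear transcripts had 3 of 30 sites called lower, all in Gnl3l, which is 10% against 3.23% of all tested sites. The median of −1.49 points was close to the −1.57 over all sites. Ncl, which encodes nucleolin, had 11.2% and 6.59% in ADAR2-null and 15.2% and 15.9% in STAT2-null at its site with the greatest difference, from 66 to 91 reads (adjusted p = 0.620). Nup155, a nuclear pore protein, had 2.24% and 2.88% in ADAR2-null and 7.89% and 5.29% in STAT2-null (adjusted p = 0.332), and Fubp3, an RNA-binding protein, overlapped. Genes of the lysosome and secretory pathway had 1 of 16 sites called lower, that of Cog3, which is 6.25% against 3.23% of all tested sites. Their median was −0.454 points, against −1.57 over all sites. In Mmgt1, a membrane protein of the endoplasmic reticulum, levels were 3.06% and 2.88% in ADAR2-null and 8.36% and 10.1% in STAT2-null (adjusted p = 0.247). The calcium-binding Golgi protein Sdf4 had 2.37% and 1.04% in ADAR2-null and 3.51% and 8% in STAT2-null (adjusted p = 0.371). Gla and the GTPase Rragd overlapped between the lines at their named sites.

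Cytoskeleton and adhesion genes had 0 of 4 sites called by edgeR, against 3.23% of all tested sites, and 2 of 4 at an unadjusted p under 0.05, against 22.0%. Their median was −2.22 points, against −1.57 over all sites. The GTPase Rhoa had 0.607% and 0.512% in ADAR2-null and 0.994% and 2.23% in STAT2-null (adjusted p = 0.346). The scaffold protein Iqgap1 had 1.06% and 0.960% in ADAR2-null, within the 1.56% and 0.841% of STAT2-null, at 5313 reads or more. Of the 15 interferon pathway genes, Ifnar1, a chain of the type I interferon receptor, was the one with tested sites. It had 5 sites, 0 called by edgeR, against 3.23% of all tested sites, and 2 at an unadjusted p under 0.05, against 22.0%. Its named intronic site had no edited read in 3 of the 4 libraries and 12 of 176 reads in the second STAT2-null library.

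The called sites were also read in untreated cells of the other lines. In ADAR1-null cells, 17 of the 18 called sites were covered, 10 of them below 1% and 3 above 10%. Of all tested sites 387 were covered there, 306 of them below 1% and 4 above 10%. The 3 called sites above 10% were Cog3 at 50.4% and 51.7%, uc012aji.1 position 6122636 at 23.3% and 18.1%, and Als2cl at 11.4% and 10.4%. Among the other called sites, Mad2l1 position 66490264 had 0.0654% and 0.253% in ADAR1-null cells and Iws1 had 0.154% and 0.0903%. The p150-knockout line was below 1% at 11 of the 18 called sites, and at 376 of the 536 tested sites it covered. Levels below 1% in these 2 lines were thus not particular to the called sites. The p150-knockout line had 67.6% and 62.9% at Cog3, 49.2% and 46.6% at Rpa1 and 24.1% and 24.8% at uc012aji.1, but 0.498% and 0.818% at Als2cl. The ADAR1_WT line had a median of 12.1% over the 17 called sites it covered, against 0.674% in ADAR2-null and 10.9% in STAT2-null cells over all 18. The calls were made on the values of the last 2 lines, so the gap between their medians is fixed by that choice. Over all tested sites the medians were 2.02% in ADAR1_WT (502 sites covered), 1.39% in ADAR2-null and 2.40% in STAT2-null cells.

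Of all 558 tested sites, 387 were covered in ADAR1-null cells, and 8 of them, in 7 loci, had a mean of at least 5% there. This limit was set after the values were seen. Both ADAR2-null libraries were below both STAT2-null libraries at 8 of these 8 sites, and 3 of them were called. The same held at 51.0% of the 306 sites under 1% in ADAR1-null cells and at 53.7% of all 387. The median difference was −17.7 points at the 8 sites and −1.48 points at the 306. STAT2-null means at these 8 sites ran from 5.90% to 79.5%, against a median of 2.40% over all tested sites. The share climbs with level, as given above. Besides the 3 called sites they comprise Rpa1 position 75114517, Mad2l1 position 66490208, the synonymous Cog3 site, Psma3 and 4933407H18Rik. Psma3, a proteasome subunit gene, had a mean of 5.86% in ADAR2-null and 31.4% in STAT2-null cells at position 72095616 of chromosome 12, and 5.17% in ADAR1-null cells (adjusted p = 0.0519).

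**Figure D4:**
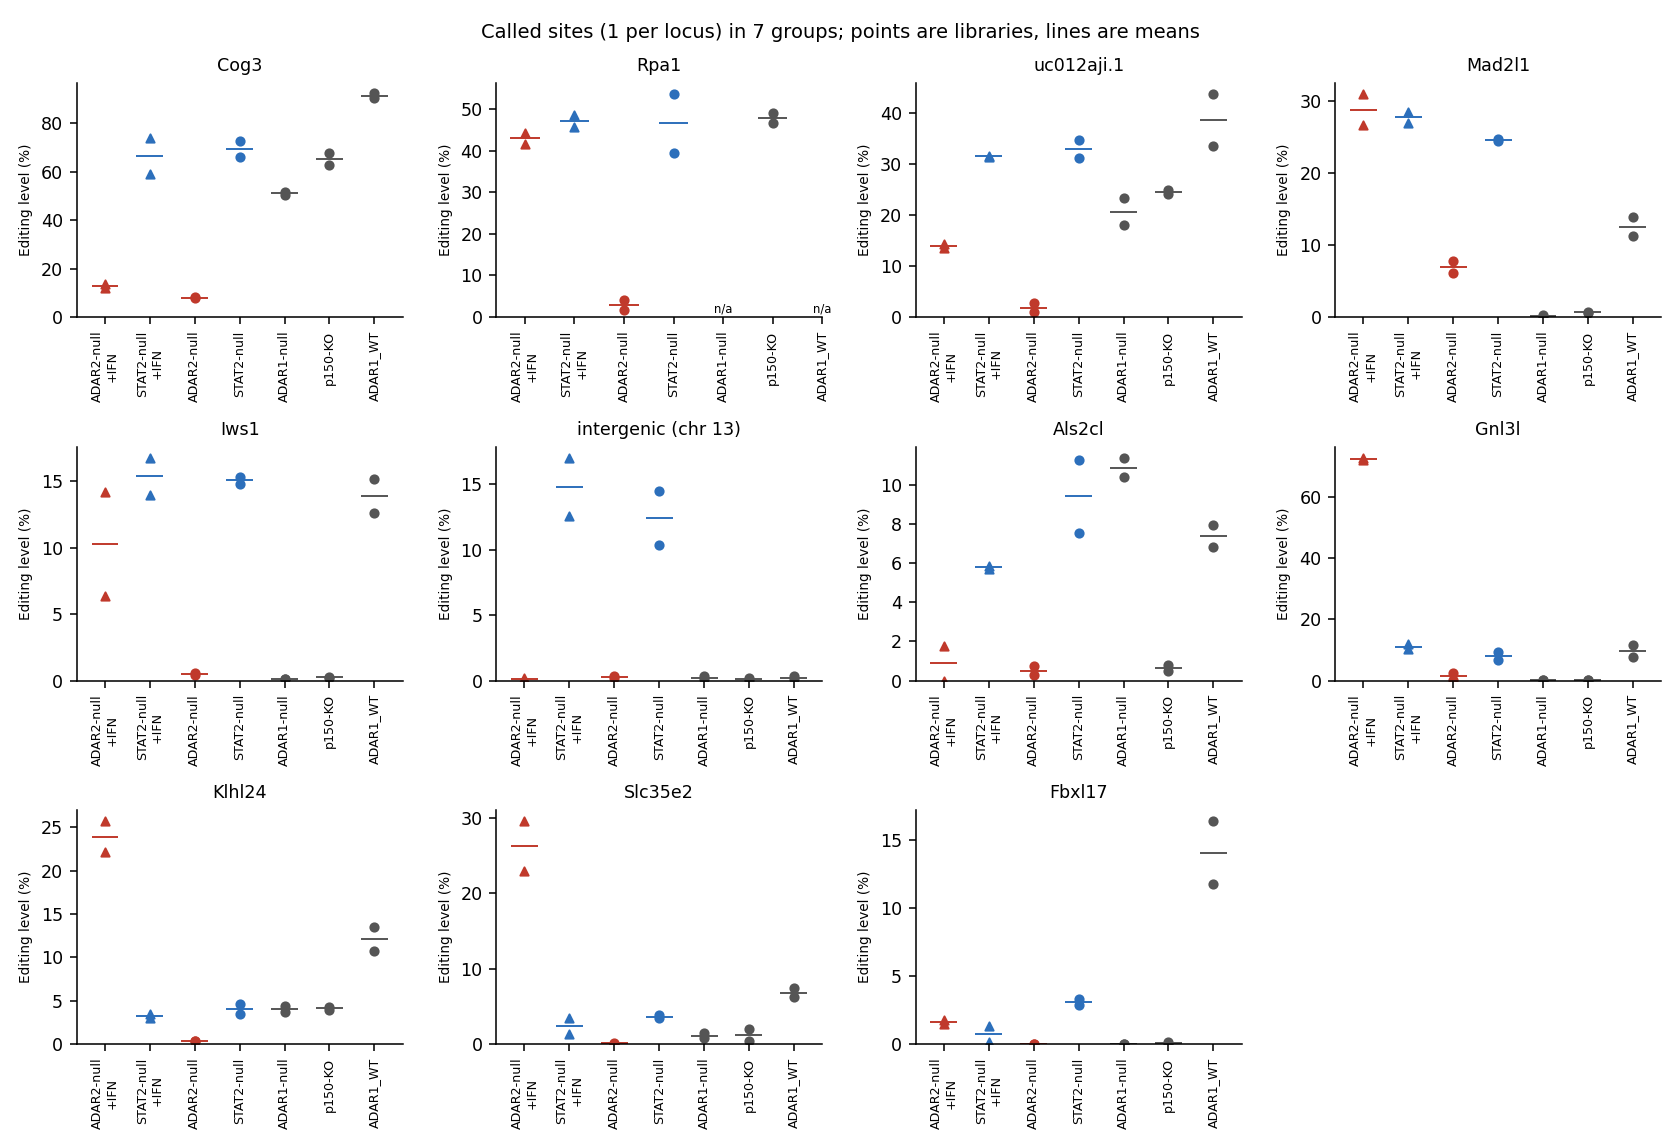
Editing level (%) at the called site with the greatest difference in each of the 11 loci, in interferon-treated ADAR2-null and STAT2-null cells (triangles) and in untreated ADAR2-null, STAT2-null, ADAR1-null, p150-knockout and ADAR1_WT cells (circles); points are libraries, lines their means, and n/a marks a group without 50 reads in both. Cog3, uc012aji.1 and Als2cl keep over 10% in ADAR1-null cells, and the intergenic site is above 1% in the STAT2-null groups alone.

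The mean over tested sites was then set beside the other untreated lines. It was 2.64% in ADAR2-null and 5.60% in STAT2-null cells over 558 sites, 1.04% in ADAR1-null cells over 387, 1.64% in p150-knockout cells over 536 and 6.00% in ADAR1_WT cells over 502. The sites differ between lines by coverage, so the means are not compared.

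With interferon, most of the sites called between the lines were higher in ADAR2-null. In the treated libraries 1194 sites passed the same filters, and 380 were called (31.8%), 367 higher in ADAR2-null (30.7%) and 13 lower (1.09%). The mean over the sites tested untreated was 14.9% in treated ADAR2-null cells and 5.77% in treated STAT2-null cells. Of the 18 sites called lower untreated, 2 were called lower with interferon, 5 were called higher and 11 were not called. Of all 424 sites tested both untreated and with interferon, 9 were called lower with interferon, 108 higher and 307 not called. The share called higher among the 18 is near that of the 424, so nothing particular to the 18 is read from it. The 2 called lower in both were Cog3, at 13.5% and 12.03% in ADAR2-null and 59.1% and 74.0% in STAT2-null (adjusted p = 0.00355), and the intergenic site (adjusted p = 4.56e-05). The interferon responses of the lines differed at 107 of all 558 sites (19.2%), by the edgeR contrast of the 4 groups. Of the 18 sites 13 were among them, but this contrast subtracts the untreated values that chose the 18, so nothing is read from that count. The 5 called higher were the 3 Gnl3l sites, Klhl24 and Slc35e2. Gnl3l position 147420066 had 73.0% and 72.1% in treated ADAR2-null cells and 10.3% and 11.8% in treated STAT2-null cells (adjusted p = 0.000746).

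The other sites called lower with interferon included 2 in the 3′ UTR of C330018D20Rik, 1 in Mgat4a, a Golgi glycosyltransferase gene, the synonymous Cog3 site and the Flna site. Mgat4a had 0% and 0.216% in treated ADAR2-null cells and 6.13% and 4.58% in treated STAT2-null cells (adjusted p = 0.0184). At uc012aji.1 position 6122636, treated ADAR2-null cells had 14.3% and 13.6% and treated STAT2-null cells 31.6% and 31.4%, which was not called (adjusted p = 0.0762). Als2cl likewise had 1.77% and 0% in treated ADAR2-null and 5.71% and 5.83% in treated STAT2-null cells (adjusted p = 0.0572). The untreated and treated comparisons use separate libraries of the same 2 lines.

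**Figure D5:**
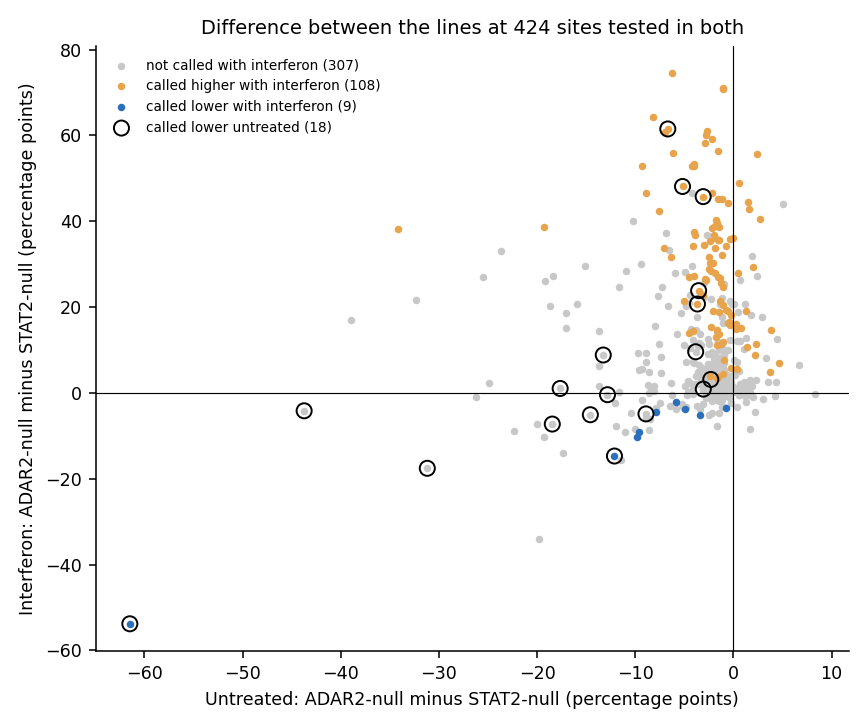
Difference in editing level (ADAR2-null minus STAT2-null, percentage points) at the 424 sites tested both untreated (horizontal) and with interferon (vertical), each point a site coloured by its call with interferon; rings mark the 18 sites called lower untreated. Cog3 lies far down on the left with −61.5 and −53.8 points, while the Gnl3l sites lie left of 0 untreated and above 45 with interferon.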

How the data were processed

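Editing was measured in amplicon libraries of mouse embryonic fibroblasts; 15 further PCR cycles added the indexes, per the labels' protocols. BWA, SAMtools and the build mm9 are named in the submitters' processing notes; no version is given in the sources used here. Each library's deposited table holds, per the file headers, coverage and edited reads as counts and the editing level as a fraction for 48425 known sites. Levels were recomputed as edited reads over coverage. Whether positions count from 0 or 1 is not stated, and no mm9 genome was used, so no sequence is given. The series' design speaks of 6 lines, of which 5 are in the files; the remaining line was not analysed here.

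Counts of edited and unedited reads were fitted with edgeR 4.0.16 (R 4.3.3, methylation design, glmQLFit and glmQLFTest, two-sided) over all 20 libraries with 1 coefficient per group, so groups outside the comparison share the estimate of spread. Sites needed 50 reads or more in each library and a mean level of 1% or more; p-values were adjusted over all sites tested in a comparison. Alternatives were limma 3.58.1 on log2 odds computed from the deposited counts (offset 0.5), a fit to 4 libraries, a replicate block, other minimums and leaving out each library. On simulated data of this untreated comparison, with 558 sites, the fit called 51.0% of sites with a log2 odds ratio of 2, 79.0% at 3 and 2 of 358 unchanged sites. The simulation gave every site the same spread of log odds between libraries. Real replicates were more uneven from site to site, so these rates need not hold for the data. Replicates differed beyond counting noise (chi-square per degree of freedom 8.85 in ADAR2-null, 5.43 in STAT2-null). Same-numbered libraries did not deviate together (r = −0.0916 across sites, which are not independent), so the main fit does not pair them. This value cannot exclude a shared batch.

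Named were the called site with the greatest difference per gene or intergenic locus (sites within 5 kb), every tested amino acid site except 1 that is not reported here, and, for each listed gene, its site with the greatest difference. Sites of the other lines chosen by their ADAR1-null level, single neighbours of named sites, the treated calls and Ankrd28, Dnajc1 and Psma3 were named after their values were seen. The members, lists and tests were chosen with earlier results of these data known. Of 170 genes, 129 symbols matched RefSeq and 10 matched a synonym; names are printed as the files give them. Figures were drawn with matplotlib 3.10.9 and tables made with pandas 2.3.3 and scipy 1.17.1 in Python 3.11.15.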

Additional observations from a re-analysis of the deposited data

Results flagged for a closer look

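At 15 of the named sites the interferon responses of the lines differed by edgeR's contrast of the 4 groups (interferon minus untreated, in ADAR2-null minus in STAT2-null), at an adjusted p under 0.05; over all 558 sites 107 passed (19.2%). This contrast was added after seeing the data, and each value below is a difference of responses in percentage points. Among sites called lower untreated it was 39.6 at Rpa1 position 75114079, 13.6 at uc012aji.1 position 6122636 and 18.7 at Mad2l1 position 66490264. It was 68.2 at Gnl3l position 147420066, 24.4 at Klhl24, 27.4 at Slc35e2 and 3.96 at Fbxl17. Among sites not called untreated it was 53.9 at Mad2l1 position 66490075, 40.9 at Mdc1, 80.7 at Mmgt1 and 41.7 at Sdf4. It was 57.4 at Nup155, 61.3 at Mlh3, 58.1 at Fubp3 and 72.2 at Rhoa. The contrast subtracts the untreated values, and the sites were chosen for low or most different untreated levels, so their shared positive sign is partly fixed by that choice. At Fbxl17 the treated difference was 0.89 points and was not called, and at uc012aji.1 position 6122636 it was −17.6 points and was not called. Rhoa had a mean of 73.5% with interferon and 0.559% untreated in ADAR2-null, and 2.39% with interferon and 1.61% untreated in STAT2-null.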

How the results depend on the processing

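The untreated count of 18 calls was 26 in a fit to the 4 libraries (12 of the 18 among them), 17 with limma (10 shared), 16 at a coverage minimum of 20 and 24 at 100. It was 7 with no minimum level and 28 at a minimum mean level of 5%, where 6727 and 111 sites were tested. Leaving out 1 library gave 3 to 11. Without the 2 libraries with the fewest covered sites, outside the comparison and chosen after seeing the data, it was 56. The labels give the lines shared replicate numbers and do not say whether these pair the libraries. With the replicate block in a fit to the 4 libraries the count was 29 untreated and 499 with interferon. The treated count of 380 was 162 to 222 with 1 library left out, and 266 to 478 in the other settings without the block. The mean difference of −2.95 points ran from −3.27 to −2.64 with 1 library left out, was −10.7 at a minimum mean level of 5% and −0.193 with none, and was negative in each setting run. Over the 40 named sites, 396 of 455 alternatives kept direction and side of the threshold, 52 lost a call, 7 gained one and 0 reversed. Most of the 396 are uncalled sites that stayed uncalled, since 11 of the 40 were called and only these can lose a call. Among the called ones, Als2cl and Klhl24 kept the call in 3 of 11 alternatives each, and Cog3 position 76119526 in 12 of 12. Depth limits sites such as those of Rpa1, where 50 to 335 reads lay behind a level.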

Other observations

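Sites where both ADAR2-null libraries were above both STAT2-null libraries numbered 33, and STAT2-null had no edited read at 11 of them. Tcp11l1 position 104520935 had 1.03% and 15.6% in ADAR2-null and 0% in STAT2-null (adjusted p = 0.142), and uc008npy.1 position 158143776 had 5.79% and 7.94% in ADAR2-null and a mean of 0.217% in STAT2-null (adjusted p = 0.127). The uc008npy.1 site was called higher in the fit to the 4 libraries (adjusted p = 0.0479), and the Gria3 intronic site was called higher without the 2 libraries with the fewest covered sites (adjusted p = 0.0306). These sites were singled out after their values were seen.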
